A study of Homo sapiens with 12 samples.

Results

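L428 and L1236 are established cell lines from Hodgkin lymphoma, and the comparison described here set the 4 RNA-seq libraries of these lines, 2 libraries of each, against one another, out of 12 libraries in the series. Both lines were untreated, and both grew in IMDM medium with serum. The labels call each a Hodgkin lymphoma line and say no more, so every difference is one between 2 particular lines, and what belongs to the line cannot be told apart from what belongs to its culture at the time. The other 8 libraries came from KM-H2, a further untreated Hodgkin line in the same medium, from Namalwa, a Burkitt lymphoma line, and from Reh, a pro-B leukaemia line, untreated or treated with PMA, a phorbol ester that activates protein kinase C, the last 3 groups all in RPMI medium. Library kits were used in duplicate and no source says that the duplicates came from separate cultures, so the p-values measure the spread between libraries, which may be technical. That spread was estimated over all 12 libraries and not from the 4 compared ones alone. The libraries are named as in the table, L428_0 and L428_1, L1236_0 and L1236_1, and paired values are always given in that order.

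Levels are FPKM, fragments per kilobase of transcript scaled to a common library size. Of 26210 genes in the table, 12238 had a mean of at least 1 FPKM over the 4 libraries and were tested with limma on log2(FPKM + 1). A gene was called different when its Benjamini-Hochberg adjusted p was under 0.05 and the lines differed by at least 1 on that log2 scale, on which the change of genes with low levels is understated. Differences are given as L428 minus L1236 with their standard error. The table holds no read totals. In mostly silent olfactory receptor genes of similar length, the tenth percentile of the values above 0, about what single reads are worth there, was 0.181 FPKM in L428_0, 0.0786 in L428_1, 0.189 in L1236_0 and 0.0550 in L1236_1, so library 1 of each line appeared to be the deeper by this measure. The number of these genes above 0 did not rank the libraries alike, at 29 in L428_0, 32 in L428_1, 30 in L1236_0 and 24 in L1236_1. RPL21, a ribosomal protein gene, was listed at 0 in L428_1 and at 0.0356 FPKM in L1236_1, against 545 FPKM in L428_0 and 287 FPKM in L1236_0. Each line thus held a library of either kind. The libraries of L428 differed from each other by at least 1 on the log2 scale in 1242 of the tested genes and those of L1236 in 798, against 129 in untreated Reh. Values of exactly 0 also occurred for genes that cells commonly use, so such a gene is described here as listed at 0.

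Classical Hodgkin lymphoma grows from Hodgkin and Reed-Sternberg cells, which descend from germinal centre B cells but have lost most of the B-cell gene expression programme. The cells are known for constant NF-kappaB and JAK-STAT signalling, for amplification of the 9p24 region in many tumours, and for the many cytokines and chemokines by which they draw other leukocytes around them. The study that produced the libraries asked how genes are switched on from retroviral long terminal repeats in such cells. The comparison of L428 with L1236 asks how far lines of the same disease differ from each other.

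Both lines carried the markers of Hodgkin cells. Of 14 such markers, 12 reached 1 FPKM in both libraries of L428 and 13 did so in L1236, with summed levels of 2282 and 1677 FPKM in L428 and of 1101 and 1154 FPKM in L1236, sums to which CCL17 added much in L428. Of the 19 genes tested in a longer list of Hodgkin cell markers, 5 were higher in L428 and 6 in L1236, with a median difference of -0.74, so the lines did not rank the same way by the sum as by the median. TNFRSF8, the CD30 receptor by which the disease is diagnosed, stood at 63.7 and 38.7 FPKM in L428 and 30.6 and 19.1 FPKM in L1236. Of 10 B-cell markers, EBF1 and BLK alone reached 1 FPKM in both libraries of L428, whereas PAX5, POU2AF1, BLNK and BLK did so in L1236, and MS4A1, which encodes CD20, was listed at 0 in all 4 libraries. The summed B-cell marker level was 4.37 and 4.02 FPKM in L428 against 63.9 and 49.8 FPKM in L1236. None of 8 T and NK cell markers reached 1 FPKM in both libraries of either line, with sums between 0.629 and 0.960 FPKM. The 6 myeloid markers summed to between 0.128 and 5.72 FPKM, the highest sum owing to MPO in L428_1 alone, and the 7 stromal and epithelial markers to between 1.16 and 5.94 FPKM, with COL3A1 above 1 FPKM in both libraries of L1236. In a longer list of 24 myeloid markers 5 were tested, of which CD68 and ITGAX were higher in L428 and FCGR2A in L1236. CD68, a lysosomal protein, was at 23.9 and 9.86 FPKM in L428 and 0.103 and 0.258 FPKM in L1236. FCGR2A, an IgG receptor, was at 0.194 and 0.132 FPKM in L428 and 16.3 and 23.9 FPKM in L1236. Their part in the results was not tested. In bulk RNA a low level in every cell and a high level in few cells cannot be told apart. TNFRSF8 lost its call without L1236_1 (log2 difference 0.68) and without L428_0 (0.66).

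L428 and L1236 differed widely. Of the 12238 genes tested, 1535 (12.5%) were higher in L428 and 1525 (12.5%) were higher in L1236, so that 3060 (25.0%) were called in all. The count for each gene list is to be set beside these shares, and a list with a share near them is described and not set apart. Genes of a list can reach the mean of 1 FPKM through the line in which they are high, so each count describes the tested genes alone. The median difference over all tested genes was -0.01, and the median size of the difference was 0.57. All 3060 called genes had both libraries of one line above both of the other, a pattern that 3947 of the tested genes (32.3%) showed with L428 above and 3963 (32.4%) with L1236 above. KM-H2, set against each line in the same fit, differed from L428 in 3115 genes (25.5%) and from L1236 in 3087 (25.2%), comparisons that share libraries with the one described here. The tested genes were chosen by their level in L428 and L1236, so genes high in KM-H2 alone were left out. With no filter on the mean, KM-H2 differed from L428 in 3575 genes and from L1236 in 3590. In that setting 1395 genes were higher in L428 than in L1236 and 1422 the reverse, so the near-equal shares depend on the filter. Library KM-H2_1 held 8 of 10 genes otherwise found only in L428 above their level in KM-H2_0, at a median of 2.84% of the L428 level. Without it the KM-H2 counts were 3187 and 3015, and 1571 genes were higher in L428 than in L1236 and 1554 the reverse. In 107 of the genes higher in L428 both L1236 libraries were listed at 0, and in 124 of those higher in L1236 both L428 libraries were. With a minimum mean of 5 FPKM in place of 1, 9028 genes were tested, and 1023 were higher in L428 and 1008 in L1236, all of them among the genes called here.

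**Figure D1:**
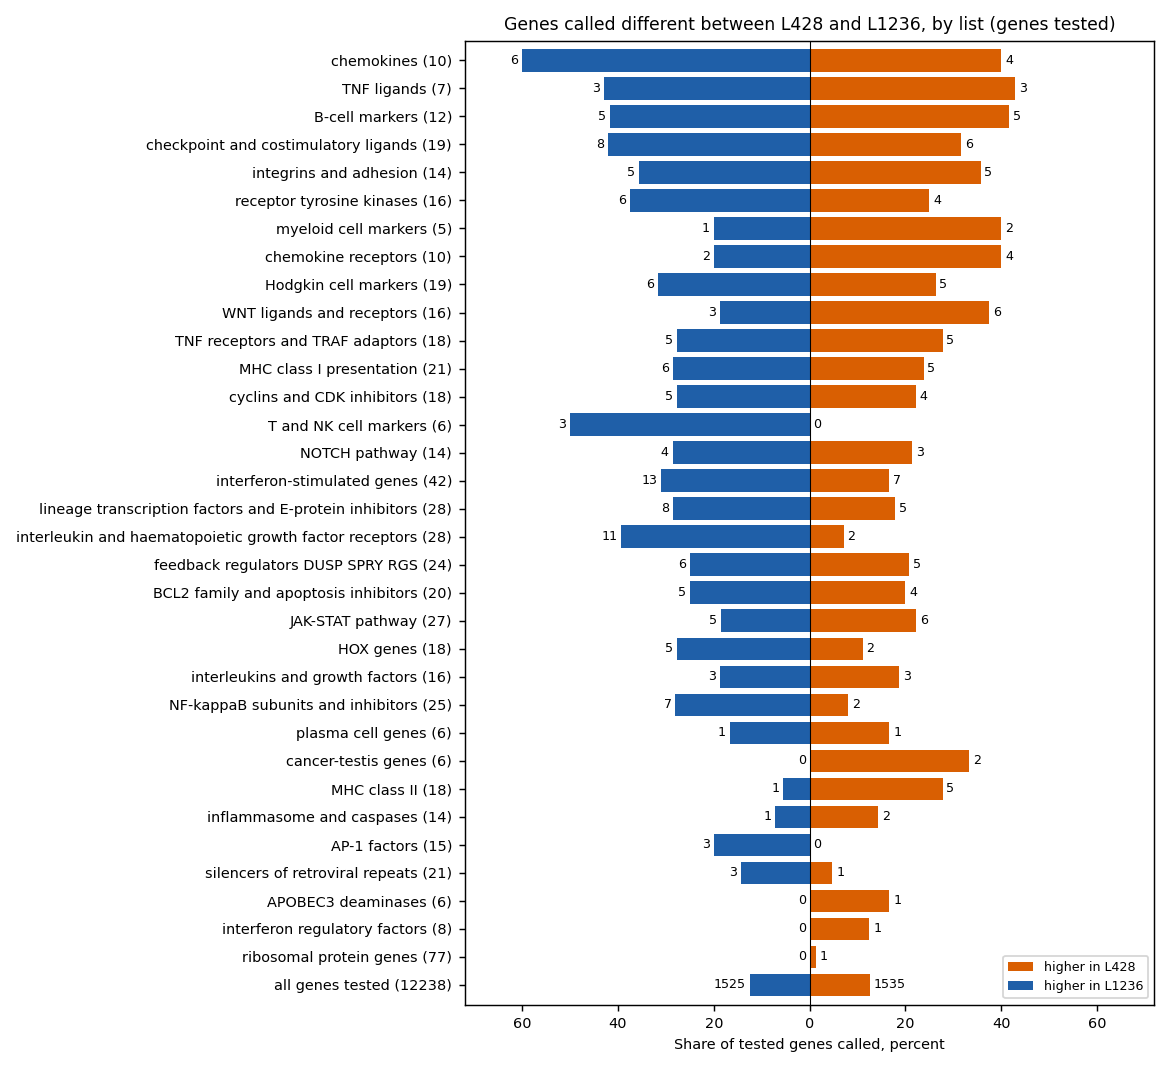
Share of the tested genes of each list that was called higher in L428 (bars to the right) or higher in L1236 (bars to the left), in percent, for lists with at least 5 tested genes, with the number of genes called written at each bar and the number tested beside the list's name; the bottom bars give all tested genes, with 12.5% on either side. All 10 tested chemokine genes lie on one side or the other, but several of them passed the filter on low levels through the line in which they were high; 1 of 77 ribosomal protein genes was called.

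Among genes with the largest differences towards L428 stood several that were listed at 0 or close to it in L1236. S100A6, a calcium-binding protein of the S100 family, was at 415 and 394 FPKM in L428 and listed at 0 in both L1236 libraries (adjusted p = 1.84e-04). Its relative S100A11 was at 152 and 166 FPKM in L428 and 0 and 0 FPKM in L1236. PRAC1, a small nuclear protein gene next to the HOXB cluster, was at 261 and 328 FPKM in L428 and, like S100A6, listed at 0 in L1236 (adjusted p = 4.38e-06). Enzymes of amino acid synthesis were in this group: ASS1, argininosuccinate synthase of the arginine pathway, at 83.7 and 151 FPKM in L428 and 0.102 and 0 FPKM in L1236. PHGDH, which opens the serine pathway, was at 88.8 and 124 FPKM in L428 and 0.269 and 0.166 FPKM in L1236. GSTO1, a glutathione transferase, was at 105 and 54.7 FPKM in L428 and was listed at 0 in both L1236 libraries. Others with the largest differences in this direction were SNAR-F, EDF1, TUBA3C, TRIM55, SNRPN, KCNH7, GNG11, TSTD1, PHACTR3, SMIM3, MYBPC2, FAM9C and CX3CL1. TMSB4X, which encodes the actin-binding thymosin beta 4, was by the mean over the 4 libraries the most abundant of the genes higher in L428, at 8973 and 1166 FPKM in L428 and 94.5 and 78.5 FPKM in L1236. That rank rests on L428_0, since in L428_1 HIST1H1C was higher, at 4266 FPKM. The genes higher in L428 that stayed under 1 FPKM in the 8 libraries of the other lines included DIAPH2-AS1 (32.9 and 110.1 FPKM in L428), TSPAN8 (34.2 and 26.3 FPKM), FRG2B (57.2 and 18.9 FPKM) and SERPINB10 (20.5 and 35 FPKM).

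The largest differences towards L1236 were led by histone genes and by CCL2, the chemokine that attracts monocytes. CCL2 was at 526 and 584 FPKM in L1236 and listed at 0 in both L428 libraries and both KM-H2 libraries (adjusted p = 6.58e-09). FCER1A, the alpha chain of the high-affinity IgE receptor of mast cells and basophils, was likewise at 293 and 295 FPKM in L1236 and at 0 in L428. BANCR, a long non-coding RNA, was at 231 and 231 FPKM, NGFRAP1 at 136 and 188 FPKM and LINC01474 at 95.4 and 138 FPKM, none of them above 1 FPKM in any library of another line. GSTM1, a glutathione transferase that many people lack through a deletion, was at 0 and 0 FPKM in L428 and 197 and 109.9 FPKM in L1236. MMP7, a matrix metalloproteinase, was at 0 and 0 FPKM in L428 and 84.7 and 130.1 FPKM in L1236. SULF1, which removes sulphate groups from heparan sulphate, was at 0 and 0.0552 FPKM in L428 and 136 and 120.1 FPKM in L1236. ALOX15, the 15-lipoxygenase of eosinophils and of cells exposed to IL-4 or IL-13, was at 3.43 and 4.08 FPKM in L428 and 393 and 198 FPKM in L1236, a log2 difference of -5.88 ± 0.28 (SE) (adjusted p = 7.77e-07). LGALS9, which encodes galectin-9, was at 1.37 and 0.655 FPKM in L428 and 153 and 82 FPKM in L1236. MBP, ALDOC, WDFY4, MARCKSL1 and COLCA2 completed the group. FTL, the ferritin light chain, was the most abundant of the genes higher in L1236, at 947 and 505 FPKM in L428 and 6498 and 5808 FPKM in L1236. NDUFS5, a subunit of respiratory complex I, was next outside the histones by the mean over the 4 libraries, at 255 and 112 FPKM in L428 and 377 and 553 FPKM in L1236. NDUFS5 lost its call without L1236_0 (log2 difference -1.71) and without L1236_1 (-1.15) and without L428_1 (-0.84).

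Every chemokine gene that could be tested differed between the lines. Of 38 in the table, 10 passed the filter on low levels, and 4 of these were higher in L428 and 6 in L1236, with a median difference of -1.41 beside -0.01 over all genes. Several passed through the line in which they were high, so the count is a description of these 10 genes and not of chemokines in general. L428 had the higher levels of CCL17, CCL1, CCL5 and CX3CL1. CCL17, or TARC, which attracts T-helper type 2 cells and is secreted by Hodgkin cells in patients, was at 705 and 454 FPKM in L428 and 37.7 and 19.8 FPKM in L1236, a difference of 4.32 ± 0.60 (SE) (adjusted p = 4.88e-04). CCL1, a ligand of CCR8, was at 113 and 127 FPKM in L428 and 1.18 and 2.06 FPKM in L1236 and differed by 5.55 ± 0.44 (SE) (adjusted p = 1.36e-05). CX3CL1, or fractalkine, which is made as a membrane-bound chemokine, was at 60.2 and 39.8 FPKM in L428 and 0.0526 and 0.0145 FPKM in L1236. CCL5, or RANTES, was at 149.9 and 107 FPKM in L428 and 24.7 and 23.8 FPKM in L1236. The libraries of the lines did not overlap for any of these genes, as was so for every called gene.

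L1236 had the higher levels of CCL2, CXCL10, CXCL11, CCL3, CXCL16 and CCL22. CXCL10, a ligand of CXCR3 on T cells that interferons induce, was at 5.58 and 21.7 FPKM in L428 and 192 and 621 FPKM in L1236, a difference of -4.82 ± 0.63 (SE) (adjusted p = 3.12e-04), although the libraries within each line were more than 1 apart on the log2 scale. CXCL11, which binds the same receptor, was lower in level but in the same direction, at 0.102 and 0.366 FPKM in L428 and 4.28 and 8.53 FPKM in L1236. CCL3, a ligand of CCR1, was at 0.465 and 1.44 FPKM in L428 and 18 and 24.6 FPKM in L1236. CCL22, a ligand of CCR4 like CCL17, was low in all libraries, at 0.638 and 0.0541 FPKM in L428 and 2.83 and 1.74 FPKM in L1236 (adjusted p = 0.0022). CCL22, CX3CL1 and CCL17 lie next to each other on chr16:57392695-57449975 of GRCh37, so that neighbouring genes of one chemokine cluster were higher in different lines. In KM-H2, CCL17 was at 12.6 and 62.7 FPKM, CX3CL1 at 41.1 and 32.5 FPKM and CXCL10 at 145 and 81.9 FPKM. CCL22 lost its call without L428_1 (log2 difference -0.98).

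Chemokine genes and NF-kappaB feedback genes are transcribed from promoters with short elements for NF-kappaB and for interferon-regulated factors. The promoters of CCL1, CXCL10 and CXCL11, which went in different directions, are shown here, with those of TNFAIP3 and NFKBIA, which encode inhibitors of NF-kappaB and also went in different directions. Each runs 5′ to 3′ along the gene's own strand from 250 bases before its start to 50 after it, as RefSeq gives it on GRCh38.p14. Capitals mark matches, on either strand, to the NF-kappaB-like letters GGNNNTTCC or to the interferon-response-like letters AAANNGAAA; matches may overlap. Of 35116 promoters of that length in RefSeq's table, 20.1% held the first and 10.5% the second. CCL1 held 1 match to the first and 0 to the second, CXCL10 held 3 and 1, CXCL11 held 1 and 1, TNFAIP3 held 2 and 0, and NFKBIA held 2 and 0. A match is a run of letters and says nothing of binding.
TNFAIP3, chr6:137867009-137867308, plus strand: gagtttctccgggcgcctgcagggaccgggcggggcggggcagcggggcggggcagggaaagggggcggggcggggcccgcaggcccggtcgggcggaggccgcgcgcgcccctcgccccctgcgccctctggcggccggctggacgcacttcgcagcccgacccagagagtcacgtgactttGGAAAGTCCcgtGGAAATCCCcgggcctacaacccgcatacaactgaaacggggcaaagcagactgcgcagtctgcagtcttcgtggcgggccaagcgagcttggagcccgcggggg
NFKBIA, chr14:35404700-35404999, minus strand: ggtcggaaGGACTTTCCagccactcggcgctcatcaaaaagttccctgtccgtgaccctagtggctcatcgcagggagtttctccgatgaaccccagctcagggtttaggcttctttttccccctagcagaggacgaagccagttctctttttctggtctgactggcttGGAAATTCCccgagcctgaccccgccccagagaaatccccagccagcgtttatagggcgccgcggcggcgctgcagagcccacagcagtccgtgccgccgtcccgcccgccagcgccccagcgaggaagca
CCL1, chr17:34363184-34363483, minus strand: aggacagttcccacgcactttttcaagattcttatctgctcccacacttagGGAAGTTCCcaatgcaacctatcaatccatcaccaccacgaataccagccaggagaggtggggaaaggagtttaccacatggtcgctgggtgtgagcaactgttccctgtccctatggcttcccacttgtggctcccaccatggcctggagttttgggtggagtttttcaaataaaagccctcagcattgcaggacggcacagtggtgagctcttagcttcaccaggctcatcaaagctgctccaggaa
CXCL10, chr4:76023448-76023747, minus strand: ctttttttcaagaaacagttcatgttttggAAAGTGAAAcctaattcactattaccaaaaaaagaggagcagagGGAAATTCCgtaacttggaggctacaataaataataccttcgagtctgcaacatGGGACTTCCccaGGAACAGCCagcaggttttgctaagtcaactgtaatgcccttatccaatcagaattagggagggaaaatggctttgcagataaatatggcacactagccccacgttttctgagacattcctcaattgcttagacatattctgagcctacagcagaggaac
CXCL11, chr4:76036021-76036320, minus strand: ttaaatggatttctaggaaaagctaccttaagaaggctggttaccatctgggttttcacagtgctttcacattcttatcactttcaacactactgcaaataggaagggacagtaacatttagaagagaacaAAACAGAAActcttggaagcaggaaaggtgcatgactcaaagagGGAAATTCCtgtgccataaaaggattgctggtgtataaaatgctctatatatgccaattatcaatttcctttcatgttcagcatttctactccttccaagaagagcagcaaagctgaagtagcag

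Receptors on the receiving side differed as well. Among chemokine receptors, 4 of the 10 tested were higher in L428 and 2 in L1236. CCR4, the receptor for CCL17 and CCL22, was at 165 and 155 FPKM in L428 and 16.6 and 26.5 FPKM in L1236, a difference of 2.87 ± 0.30 (SE) (adjusted p = 7.45e-05). GPR183, an oxysterol receptor that positions B cells in follicles, was at 35.3 and 51.5 FPKM in L428 and 1.23 and 0.593 FPKM in L1236. CCR7, which guides lymphocytes into lymph nodes and is a usual gene of Hodgkin cells, was abundant in both lines and higher in L1236, at 128 and 132 FPKM in L428 and 257 and 303 FPKM in L1236. ACKR3, a scavenger of CXCL12 and of CXCL11, was at 0.0757 and 0.0772 FPKM in L428 and 7.46 and 16.9 FPKM in L1236. CXCR4, the signalling receptor for CXCL12, was the higher in L428, at 105 and 172 FPKM in L428 and 53.5 and 74.7 FPKM in L1236. CCR7 lost its call without L1236_1 (log2 difference -0.98). CXCR4 lost its call without L1236_0 (0.84) and without L428_1 (0.72).

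Cytokine genes also differed in both directions. Of 16 interleukin and growth factor genes tested, IL5, IL13 and IL15 were higher in L428 and IL6, IL12A and PDGFA in L1236, while 10 were not called, a count to be set beside the 25.0% called over all genes. IL13, an autocrine growth factor of Hodgkin cells, was at 13.4 and 19.7 FPKM in L428 and 0.745 and 0.544 FPKM in L1236, a difference of 3.39 ± 0.21 (SE) (adjusted p = 3.19e-06). IL5, which supports eosinophils, was at 21.4 and 34.8 FPKM in L428 and listed at 0 in both L1236 libraries (adjusted p = 7.69e-06). IL6 was at 4.31 and 10.3 FPKM in L428 and 42.7 and 60.9 FPKM in L1236, a difference of -2.74 ± 0.37 (SE) (adjusted p = 4.09e-04). IL12A was at 1.26 and 1.52 FPKM in L428 and 7.55 and 10.8 FPKM in L1236. The growth factor genes CSF1 and CSF2 were present in both lines and did not pass the threshold, at 44.2 and 34.8 FPKM in L428 and 51.8 and 33 FPKM in L1236 for CSF1 and 37.4 and 21.6 FPKM in L428 and 54.8 and 91 FPKM in L1236 for CSF2. CSF2 passed with the kind of library as a second factor over the 4 libraries (adjusted p = 0.0340 in limma). It also passed without KM-H2_1 (log2 difference -1.28).

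**Figure D2:**
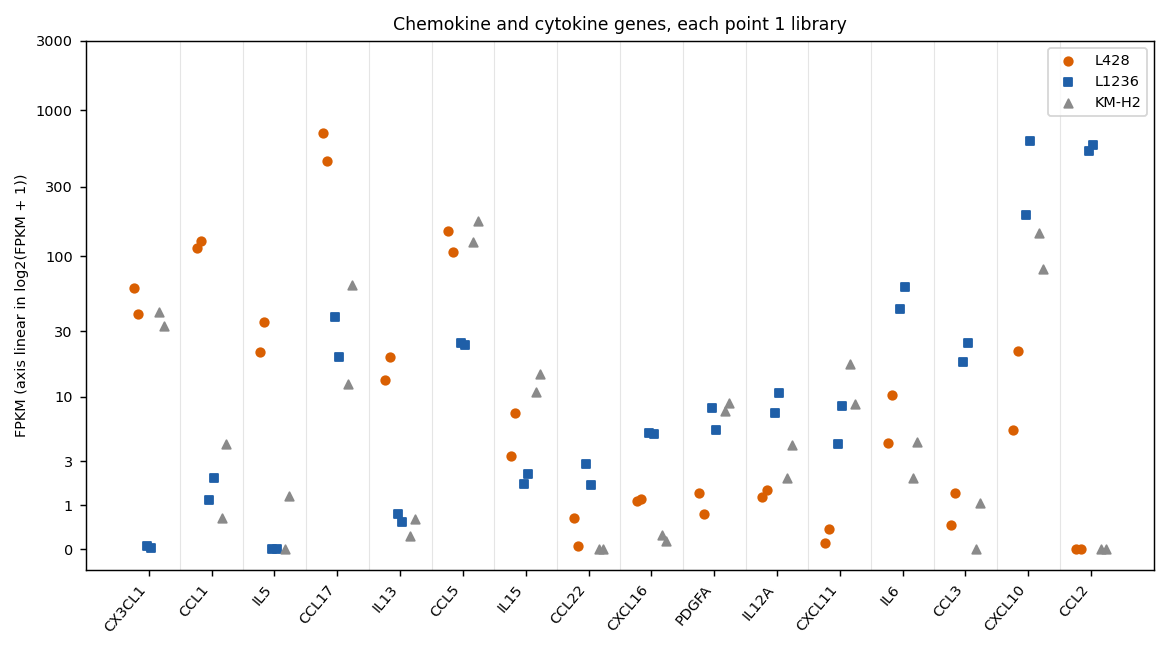
FPKM of the 10 tested chemokine genes and of IL5, IL13, IL15, IL6, IL12A and PDGFA in single libraries, on an axis that is linear in log2(FPKM + 1); each point is a library, L428 in orange, L1236 in blue and KM-H2 in grey, and genes run from those higher in L428 on the left to those higher in L1236 on the right. The 16 genes were all called, and as for every called gene the points of L428 and L1236 do not overlap. CCL2 is at 0 in L428 and KM-H2 and at 526 and 584 FPKM in L1236.

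Of 28 interleukin and growth factor receptor genes tested, 11 were higher in L1236 and 2 in L428, against 12.5% of all genes in either direction, with a median difference of -0.58. Several passed the filter on low levels through the line in which they were high, so the count describes these 28 genes alone. The genes higher in L1236 included the shared chains CSF2RB, IL2RG and IL6ST, on which the receptors for GM-CSF and IL-3, for IL-2 and its relatives, and for IL-6 are built. CSF2RB was at 0.0625 and 0.0953 FPKM in L428 and 16.2 and 18.1 FPKM in L1236, a difference of -4.07 ± 0.19 (SE) (adjusted p = 5.78e-07). IL6ST was at 5.18 and 10.1 FPKM in L428 and 17.5 and 22.7 FPKM in L1236. IL2RG was at 23.6 and 33.3 FPKM in L428 and 44.9 and 74.5 FPKM in L1236. IL1R1, the signalling receptor of IL-1, was at 0.122 and 0.38 FPKM in L428 and 41 and 34.1 FPKM in L1236, whereas its decoy IL1R2 was abundant in both lines, at 85.3 and 64.8 FPKM in L428 and 135 and 166 FPKM in L1236. IL10RA was at 7.26 and 13.1 FPKM in L428 and 60.1 and 60.2 FPKM in L1236. The chains of the interferon-gamma receptor went in opposite directions, with IFNGR1, the ligand-binding chain, at 40.4 and 122 FPKM in L428 and 5.09 and 7.1 FPKM in L1236. IFNGR2, the accessory chain, was at 13.2 and 10.3 FPKM in L428 and 42.8 and 55.4 FPKM in L1236. TGFBR2, the receptor of the growth inhibitor TGF-beta, was at 2.78 and 2.35 FPKM in L428 and 0 and 0.0197 FPKM in L1236. IL13RA1, the receptor chain that binds IL-13, was at 80.2 and 68.8 FPKM in L428 and 121 and 156 FPKM in L1236 and did not reach the fold threshold, except without L1236_0 (log2 difference -1.06). IL6ST lost its call without L428_0 (log2 difference -0.92). IL2RG lost its call without L1236_1 (-0.66) and without L428_0 (-0.78). IL1R2 lost its call without L1236_1 (-0.86) and without L428_1 (-0.81).

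In the NF-kappaB pathway, receptors and TRAF adaptors feed kinases that release NF-kappaB dimers from inhibitors, some of which the dimers themselves induce. Of 18 TNF receptors and TRAF adaptors tested, 5 were higher in each line, beside 12.5% of all genes each way. Some, such as CD27 and TRAF2, passed the filter on low levels through the line in which they were high. CD40, the receptor for T-cell help, was at 27.9 and 18.9 FPKM in L428 and 140.5 and 147 FPKM in L1236, a difference of -2.59 ± 0.23 (SE) (adjusted p = 2.82e-05). CD27 was at 0.634 and 0.13 FPKM in L428 and 17.6 and 9.55 FPKM in L1236. TRAF1, an adaptor that NF-kappaB induces, was at 69.5 and 111 FPKM in L428 and 10.5 and 14.3 FPKM in L1236, the reverse direction, with a difference of 2.74 ± 0.26 (SE) (adjusted p = 3.76e-05). TRAF2, the central adaptor of CD30, CD40 and the TNF receptors, was at 18.4 and 23.7 FPKM in L428 and listed at 0 in both L1236 libraries. Of 7 TNF ligand genes tested, TNFSF10, CD70 and TNFSF13 were higher in L428, and TNF, LTA and TNFSF9 in L1236. TNFSF10, the death ligand TRAIL, was at 57.1 and 103 FPKM in L428 and 6.99 and 18.8 FPKM in L1236. TNF was at 15.7 and 16.3 FPKM in L428 and 60.1 and 64.5 FPKM in L1236. LTA was at 31.3 and 29.6 FPKM in L428 and 116 and 92 FPKM in L1236.

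Among 25 NF-kappaB subunits and inhibitors tested, 2 were higher in L428 and 7 in L1236, beside 12.5% of all genes in each direction, and 16 were not called. TNFAIP3, or A20, the deubiquitinase that switches the pathway off and is often lost in Hodgkin lymphoma, was at 246 and 355 FPKM in L428 and 19.9 and 30.9 FPKM in L1236, a difference of 3.52 ± 0.48 (SE) (adjusted p = 4.18e-04). NFKBIZ, a nuclear co-factor, was at 1.77 and 5.06 FPKM in L428 and 0.837 and 0.89 FPKM in L1236. The inhibitors NFKBIA and NFKBIE, which hold dimers in the cytoplasm, went the other way, NFKBIA at 77.4 and 121 FPKM in L428 and 194 and 242 FPKM in L1236, with a difference of -1.15 ± 0.26 (SE) (adjusted p = 0.0079). NFKBIE was at 5.09 and 5.09 FPKM in L428 and 21.7 and 26.4 FPKM in L1236. MALT1, a protease that cleaves A20, was at 5.83 and 8.56 FPKM in L428 and 64.2 and 83.3 FPKM in L1236, a difference of -3.20 ± 0.28 (SE) (adjusted p = 2.57e-05). NFKB1 was at 18.5 and 24.2 FPKM in L428 and 41.7 and 51.3 FPKM in L1236. BIRC3 was at 37.5 and 47.1 FPKM in L428 and 90.2 and 123 FPKM in L1236. TNIP2, an A20-binding inhibitor, was at 8.86 and 7.91 FPKM in L428 and 44.7 and 46.8 FPKM in L1236. REL stood at 34.9 and 39.2 FPKM in L428 and 19.9 and 18.3 FPKM in L1236. NFKB2 was at 85 and 75 FPKM in L428 and 54.1 and 57 FPKM in L1236, and neither was called. NFKBIZ lost its call without L1236_0 (log2 difference 1.12) and without L1236_1 (1.16) and without L428_1 (0.57). NFKBIA lost its call without L1236_1 (-0.99) and without L428_0 (-0.84). NFKB1 lost its call without L1236_1 (-0.95) and without L428_0 (-0.91).

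Of 27 JAK-STAT genes tested, 6 were higher in L428 and 5 in L1236, where 25.0% of all genes were called, and the STAT genes divided. STAT4, which IL-12 activates, was at 22.9 and 46.9 FPKM in L428 and 0.318 and 1.24 FPKM in L1236, a difference of 4.30 ± 0.45 (SE) (adjusted p = 8.13e-05). STAT3 was at 80.1 and 73.1 FPKM in L428 and 22.6 and 23 FPKM in L1236, a difference of 1.71 ± 0.21 (SE) (adjusted p = 2.55e-04). STAT5A was at 90.2 and 73 FPKM in L428 and 25 and 23 FPKM in L1236. STAT6, through which IL-4 and IL-13 signal, was at 68.1 and 54.7 FPKM in L428 and 182 and 206 FPKM in L1236, a difference of -1.65 ± 0.27 (SE) (adjusted p = 0.00142), so the line with the higher IL13 level had the lower STAT6 level. JAK2 was at 18.1 and 28.4 FPKM in L428 and 52.4 and 53.1 FPKM in L1236. Of the PIM kinases, which are STAT targets, PIM1 was at 27.3 and 36.1 FPKM in L428 and 3.0 and 4.24 FPKM in L1236. PIM2 was at 20.8 and 12.3 FPKM in L428 and 114 and 147 FPKM in L1236. The negative regulators SOCS3, at 14.7 and 9.48 FPKM in L428 and 37.3 and 25.3 FPKM in L1236, and SOCS6, at 1.06 and 1.33 FPKM in L428 and 10.5 and 11.4 FPKM in L1236, were higher in L1236, and the phosphatases PTPN6, at 8.63 and 6.76 FPKM in L428 and 0.915 and 0.791 FPKM in L1236, and PTPN1, at 67.2 and 89.9 FPKM in L428 and 37 and 37.7 FPKM in L1236, in L428. SOCS1, a brake on JAK2 that is often mutated in Hodgkin lymphoma, was at 61.2 and 40.7 FPKM in L428 and 41.8 and 21.5 FPKM in L1236 and was not called. JAK2 lost its call without L428_0 (log2 difference -0.87). SOCS3 lost its call without L1236_0 (-1.04) and without L428_1 (-1.01). PTPN1 lost its call without L428_1 (0.83).

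**Figure D3:**
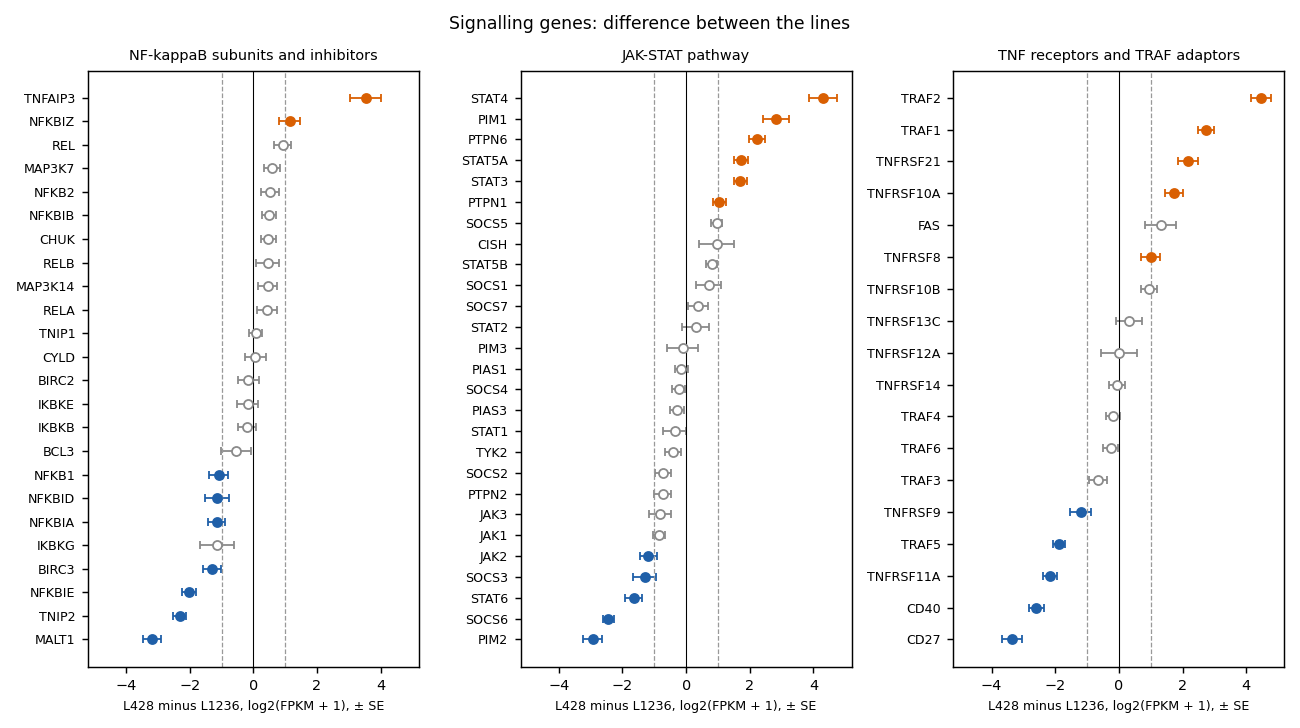
Difference between L428 and L1236 on the log2(FPKM + 1) scale, with its standard error from limma as a bar, for tested genes of the lists of NF-kappaB subunits and inhibitors (24 of 25 genes), JAK-STAT pathway (27 genes) and TNF receptors and TRAF adaptors (18 genes); orange points were called higher in L428, blue points higher in L1236 and open points were not called, and the dashed lines mark a difference of 1 in either direction. TNFAIP3 lies farthest towards L428 and MALT1 farthest towards L1236 among the NF-kappaB genes.

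The genes of 9p24 that Hodgkin cells often amplify were higher in L1236. Over chr9:4984390-5571282 of GRCh37, 4 of 8 genes were tested, and JAK2, CD274 and PDCD1LG2 were called. CD274, or PD-L1, was at 3.74 and 7.28 FPKM in L428 and 29.9 and 33.1 FPKM in L1236, a difference of -2.37 ± 0.25 (SE) (adjusted p = 9.09e-05). PDCD1LG2, or PD-L2, was at 4.94 and 10.5 FPKM in L428 and 33.8 and 55.6 FPKM in L1236. PLGRKT, a plasminogen receptor gene between them, was at 55.7 and 52.2 FPKM in L428 and 52.9 and 98.5 FPKM in L1236 and was not called, so not every gene of the stretch differed. Of 19 checkpoint and costimulatory ligand genes tested, 8 were higher in L1236 and 6 in L428, beside 12.5% of all genes in each direction. Some, such as LGALS3, passed the filter on low levels through the line in which they were high. CD80 and CD86, the ligands of CD28 and CTLA4, were at 20.8 and 29.1 FPKM in L428 and 39.5 and 67.1 FPKM in L1236 and at 30.1 and 41.7 FPKM in L428 and 84.2 and 101 FPKM in L1236, in that order. SLAMF1 was at 2.44 and 3.6 FPKM in L428 and 76.2 and 82.1 FPKM in L1236. CD47, the signal that wards off macrophages, was the higher in L428, at 57 and 88.7 FPKM in L428 and 12.4 and 16.1 FPKM in L1236, as were LGALS3, or galectin-3, at 34.9 and 36 FPKM in L428 and 0.927 and 0 FPKM in L1236, and IDO1, at 1.99 and 2.96 FPKM in L428 and 0.376 and 0.099 FPKM in L1236, the last at a low level. CD80 lost its call without L1236_1 (log2 difference -0.66) and without L428_0 (-0.80).

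MHC class I presentation also divided. Of 21 genes tested, 5 were higher in L428, among them HLA-B, HLA-C, HLA-F and the NKG2D ligand ULBP2, 6 were higher in L1236, namely TAP1, TAP2, PSMB8, PSMB9, ERAP2 and MICB, also an NKG2D ligand, and 10 were not called. HLA-B was at 607 and 707 FPKM in L428 and 201 and 197 FPKM in L1236, a difference of 1.71 ± 0.29 (SE) (adjusted p = 0.00164). The peptide transporter gene TAP1 was at 34.9 and 34.6 FPKM in L428 and 224 and 287 FPKM in L1236, a difference of -2.83 ± 0.23 (SE) (adjusted p = 1.42e-05). TAP2 was at 9.69 and 7.72 FPKM in L428 and 41 and 43.5 FPKM in L1236. The immunoproteasome subunits PSMB8 and PSMB9 were at 94.1 and 65 FPKM in L428 and 215 and 287 FPKM in L1236 and at 38.7 and 45.7 FPKM in L428 and 92.9 and 106 FPKM in L1236, and the trimming peptidase ERAP2 at 3.31 and 3.41 FPKM in L428 and 43 and 61 FPKM in L1236. B2M, the light chain, was at 577 and 1090 FPKM in L428 and 1515 and 2309 FPKM in L1236 and did not pass the test (adjusted p = 0.0837), although it did with the kind of library as a second factor over the 12 libraries (adjusted p = 0.0413), without the mean-variance trend (0.0293) and without L428_1 (0.0473). HLA genes are near-copies of one another and vary between people, so reads may be split among them, and their levels are uncertain in each line. Of 18 MHC class II genes, 5 were higher in L428 and 1 in L1236, beside 12.5% of all genes in each direction, with a median difference of 0.71. HLA-DRB1 was at 317 and 207 FPKM in L428 and 80.1 and 64.2 FPKM in L1236. HLA-DOA was at 30.6 and 22.1 FPKM in L428 and 2.75 and 5.06 FPKM in L1236. HLA-DRA, at 1020 and 545 FPKM in L428 and 264 and 522 FPKM in L1236, and CD74, the invariant chain, at 1758 and 958 FPKM in L428 and 632 and 845 FPKM in L1236, were not called, although CD74 was without L428_1 (log2 difference 1.27). PSMB9 lost its call without L1236_0 (log2 difference -1.31) and without L1236_1 (-1.13) and without L428_0 (-1.10). HLA-DRB1 lost its call without L1236_1 (1.66) and without L428_0 (1.51).

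Interferon-stimulated genes did not move as one. Of 42 tested, 13 were higher in L1236 and 7 in L428, with 22 not called and a median difference of -0.65, where all genes gave 12.5% in each direction and a median of -0.01. MX1, an antiviral GTPase, was at 3.31 and 5.59 FPKM in L428 and 58.6 and 128 FPKM in L1236, a difference of -4.04 ± 0.50 (SE) (adjusted p = 2.26e-04), while its relative MX2 was at 18.9 and 19 FPKM in L428 and 5.28 and 9.69 FPKM in L1236, in the other direction. IFI44L was at 4.57 and 7.24 FPKM in L428 and 38 and 79.1 FPKM in L1236. OAS1 was at 4.68 and 3.32 FPKM in L428 and 13.9 and 41.4 FPKM in L1236. ISG15, a ubiquitin-like protein, was at 80 and 80.7 FPKM in L428 and 213 and 439.6 FPKM in L1236. Within L1236, all 13 of the genes higher in that line were also higher in L1236_1 than in L1236_0, by 1.49 to 3.87 times with a median of 2.07, a spread between libraries whose part in the result was not tested. HERC5, the ligase that attaches ISG15 to proteins, and its relative HERC6 were higher in L428, at 12.5 and 15.3 FPKM in L428 and 1.73 and 2.37 FPKM in L1236 and at 8.88 and 14 FPKM in L428 and 0.0458 and 0 FPKM in L1236. GBP1 was at 14.1 and 11.4 FPKM in L428 and 2.36 and 4.74 FPKM in L1236. GBP5 was at 35.7 and 78.6 FPKM in L428 and 15 and 26 FPKM in L1236. IFITM2 was at 44.9 and 13.7 FPKM in L428 and 0 and 0.301 FPKM in L1236. IFITM3, its close copy, was at 0.584 and 0 FPKM in L428 and 3.67 and 5.47 FPKM in L1236, so these members pointed in opposite directions and their reads may be hard to assign. Of 8 interferon regulatory factors tested, IRF8 alone was called, at 22.2 and 13 FPKM in L428 and 0.598 and 1.28 FPKM in L1236. IRF4, which Hodgkin cells depend on, was at 159.8 and 123 FPKM in L428 and 194 and 189.9 FPKM in L1236. MX2 lost its call without L1236_0 (log2 difference 0.90). ISG15 lost its call without L1236_1 (-1.39). GBP5 lost its call without L1236_0 (1.00) and without L428_1 (0.82).

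B-cell regulators differed in both directions. Of 12 B-cell markers tested, 5 were higher in each line, beside 12.5% of all genes each way. Some, such as PAX5 and POU2AF1, passed the filter on low levels through the line in which they were high. PAX5, the factor that commits cells to the B lineage, was at 0.537 and 0.62 FPKM in L428 and 33.8 and 19.8 FPKM in L1236, a difference of -4.09 ± 0.37 (SE) (adjusted p = 3.24e-05). POU2AF1, a co-activator for octamer-binding factors, was at 0 and 0.026 FPKM in L428 and 20.3 and 19.4 FPKM in L1236. FCER2, or CD23, was at 17 and 37.2 FPKM in L428 and 109 and 85.8 FPKM in L1236. L428 had the higher levels of BCL6, the repressor of the germinal centre, at 13 and 24.1 FPKM in L428 and 1.87 and 2.07 FPKM in L1236, of SPIB at 6.31 and 6.66 FPKM in L428 and 0.296 and 0.335 FPKM in L1236 and of BACH2 at 2.65 and 3.41 FPKM in L428 and 0.0185 and 0.00987 FPKM in L1236. PRDM1, which drives plasma cell differentiation and is repressed by BCL6 and BACH2 in normal B cells, was also higher in L428, at 9.49 and 12.8 FPKM in L428 and 0.794 and 0.273 FPKM in L1236, a difference of 2.99 ± 0.21 (SE) (adjusted p = 6.30e-06). MZB1, a chaperone of plasma cells, was at 11.1 and 5.03 FPKM in L428 and 40.2 and 65.2 FPKM in L1236. XBP1 was at 105 and 191 FPKM in L428 and 62.8 and 78 FPKM in L1236 and was not called, although it was with the kind of library as a second factor over the 4 libraries (adjusted p = 0.0276 in limma) and without L428_0 (0.0300). FCER2 lost its call without L1236_0 (log2 difference -1.73) and without L428_0 (-1.36). MZB1 lost its call without L1236_1 (-2.27) and without L428_1 (-2.11).

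Of 28 lineage transcription factors and E-protein inhibitors tested, 5 were higher in L428 and 8 in L1236. The RUNX genes, which encode factors of blood cell development, divided. RUNX1 was at 11.1 and 8.78 FPKM in L428 and 2.2 and 1.03 FPKM in L1236, a difference of 2.09 ± 0.42 (SE) (adjusted p = 0.00432). RUNX2 was at 52.3 and 95.1 FPKM in L428 and 4.74 and 2.89 FPKM in L1236, a difference of 3.92 ± 0.39 (SE) (adjusted p = 5.43e-05). RUNX3 was at 5.63 and 6.47 FPKM in L428 and 30.8 and 16.4 FPKM in L1236, a difference of -1.74 ± 0.33 (SE) (adjusted p = 0.00289). ETS2 was at 19.9 and 27.4 FPKM in L428 and 0 and 0.0244 FPKM in L1236, whereas ETS1 and FLI1, neighbours on chromosome 11, were at 7.09 and 7.5 FPKM in L428 and 38.6 and 33 FPKM in L1236 and at 0.997 and 1.48 FPKM in L428 and 17.2 and 16.6 FPKM in L1236. NFIX, a nuclear factor I gene, was at 0.379 and 0.166 FPKM in L428 and 16.1 and 8.51 FPKM in L1236. NFIA was at 5.18 and 3.77 FPKM in L428 and 0.48 and 0.563 FPKM in L1236, again in opposite directions. MSC, which encodes the E-protein inhibitor ABF-1, was at 101 and 101 FPKM in L428 and 16.9 and 20.1 FPKM in L1236. TCF3, which encodes the E proteins themselves, was at 39.3 and 27.3 FPKM in L428 and 77.9 and 67.7 FPKM in L1236, so L428 had more of the inhibitor's RNA and less of its target's. Neither MYC, at 84.1 and 51 FPKM in L428 and 82.6 and 46.8 FPKM in L1236, nor MYB, at 19.6 and 45.9 FPKM in L428 and 47.4 and 45.1 FPKM in L1236, was called. Of 6 T and NK cell markers tested, the factors TCF7 and EOMES and the coreceptor CD4 were higher in L1236, and 3 were not called. TCF7 was at 1.21 and 0.168 FPKM in L428 and 38 and 41.2 FPKM in L1236. EOMES was at 8.73 and 9.63 FPKM in L428 and 44.5 and 26.7 FPKM in L1236, while CD3D and CD3G were listed at 0 in all 4 libraries. TCF3 lost its call without L428_1 (log2 difference -0.87). EOMES lost its call without L1236_0 (-1.45).

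Of 15 AP-1 family genes tested, 3 were higher in L1236, all of the ATF group, and none was higher in L428, a share near the 25.0% called over all genes. At an unadjusted p under 0.05 in limma and without the fold threshold, 2 were higher in L428 and 5 in L1236. BATF3, at 189 and 215 FPKM in L428 and 324 and 395 FPKM in L1236, and JUNB, at 205 and 136 FPKM in L428 and 150.5 and 145 FPKM in L1236, were abundant in both lines. JUN itself was at 31.6 and 128 FPKM in L428 and 16.7 and 19.6 FPKM in L1236, with L428_1 far above the other libraries, and did not pass the test (adjusted p = 0.0591), although it did with the kind of library as a second factor over the 4 libraries (0.0169) and without L428_0 (0.00938). Among the 4 genes that the study named as driven from repeats, a list chosen on these lines, TNFRSF11A, or RANK, was called, at 9.76 and 14.5 FPKM in L428 and 61.5 and 51.8 FPKM in L1236, a difference of -2.16 ± 0.22 (SE) (adjusted p = 6.81e-05). NLRP1 was at 18.4 and 35.6 FPKM in L428 and 23.6 and 30.2 FPKM in L1236. WNT5A was at 2.8 and 3.19 FPKM in L428 and 0.661 and 1.52 FPKM in L1236. Neither was called, although WNT5A was without L428_0 (log2 difference 1.03), without L1236_1 (1.26) and with a pseudocount of 0.1 (1.48). CSF1R was under the level needed for testing, at 1.1 and 0.665 FPKM in L428 and 0.463 and 0.246 FPKM in L1236. Of 21 genes that silence retroviral repeats, 17 were not called and 4 were, also near the 25.0% of all genes. ATF7IP was at 48.5 and 56.8 FPKM in L428 and 17.3 and 27 FPKM in L1236, and EHMT2, PPHLN1 and DNMT3A were the ones higher in L1236, DNMT3A at 0.844 and 1.25 FPKM in L428 and 2.98 and 3.3 FPKM in L1236. ATF7IP lost its call without L1236_0 (log2 difference 0.93). DNMT3A lost its call without L1236_1 (-0.97) and without L428_0 (-0.88).

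HOX genes of the D cluster split within a single locus. HOXD8 was at 13 and 14.9 FPKM in L428 and listed at 0 in both L1236 libraries (adjusted p = 2.39e-07). HOXD13, which acts at the ends of the limbs, was at 17.9 and 9.69 FPKM in L1236 and 0 and 0.0345 FPKM in L428. HOXD11, at 16.7 and 9.86 FPKM, HOXD10, at 7.4 and 5.68 FPKM, and HOXD4, at 4.12 and 2.26 FPKM in L1236, were listed at 0 in both L428 libraries. HOXD9 was at 4.0 and 4.87 FPKM in L428 and 3.67 and 1.7 FPKM in L1236 and was not called (adjusted p = 0.108), although it was without L1236_0 (log2 difference 1.00). The cluster lies on chr2:176957449-177055635 of GRCh37, where 6 of the 13 genes in the table were tested and 5 were called. HOXB13 was at 7.34 and 4.91 FPKM in L428 and 0 and 0.0153 FPKM in L1236, beside PRAC1, its neighbour, which L428 also had at the higher level. Over all HOX genes, 18 were tested, of which 2 were higher in L428 and 5 in L1236, beside 12.5% of all genes each way.

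Feedback regulators of MAP kinase and of G protein signalling formed another divided list, with 5 of 24 tested genes higher in L428 and 6 in L1236. The phosphatases DUSP6 and DUSP4, which inactivate MAP kinases and which ERK signalling induces, were at 142 and 184 FPKM in L428 and 3.49 and 4.09 FPKM in L1236 and at 7.93 and 14.6 FPKM in L428 and 0.121 and 0.0404 FPKM in L1236, with a difference of 5.09 ± 0.38 (SE) for DUSP6 (adjusted p = 9.36e-06). SPRY2, an inhibitor of receptor tyrosine kinase signalling, was at 7.9 and 8.25 FPKM in L428 and listed at 0 in both L1236 libraries. SPRED1 was at 16.9 and 20.1 FPKM in L428 and 2.45 and 2.24 FPKM in L1236. Of the RGS genes, which shorten G protein signals, RGS16, RGS13, RGS2 and RGS14 were higher in L1236 and RGS9 in L428, while the phosphatase genes DUSP14 and DUSP16 were higher in L1236. RGS16 was at 1.61 and 4.97 FPKM in L428 and 50.4 and 42.2 FPKM in L1236. RGS2 was at 23 and 59 FPKM in L428 and 104 and 145 FPKM in L1236. Of 16 receptor tyrosine kinases tested, 4 were higher in L428, led in level by MET, the hepatocyte growth factor receptor, at 61.3 and 67.6 FPKM in L428 and 11.6 and 15.7 FPKM in L1236. The 6 higher in L1236 included DDR2, a collagen receptor, at 3.38 and 2.83 FPKM in L428 and 14.4 and 19.2 FPKM in L1236. RGS2 lost its call without L1236_1 (log2 difference -1.46).

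WNT and NOTCH genes also differed in part. Of 16 WNT genes tested, 6 were higher in L428, 3 were higher in L1236, among them TCF7, and 7 were not called. FZD8, FZD1, FZD5, FZD7, LRP5 and LRP6, receptors and co-receptors for WNT, were higher in L428 at low levels, LRP6 at 3.29 and 4.28 FPKM in L428 and 0.951 and 0.597 FPKM in L1236, while WNT5B, at 0.145 and 0.037 FPKM in L428 and 25.8 and 24.7 FPKM in L1236, and LEF1, at 4.89 and 3.43 FPKM in L428 and 25.6 and 30.1 FPKM in L1236, were higher in L1236. Of 14 NOTCH genes tested, 3 were higher in L428 and 4 in L1236. JAG1 was at 4.8 and 4.84 FPKM in L428 and 0.91 and 0.652 FPKM in L1236. JAG2 was at 0.50 and 0.184 FPKM in L428 and 12.2 and 6.79 FPKM in L1236, so the Jagged ligands pointed in opposite directions. MFNG was at 0.0783 and 0.152 FPKM in L428 and 15.4 and 14.8 FPKM in L1236. Of 14 integrin and adhesion genes, 5 were higher in each line, beside 12.5% of all genes each way. Some, such as ITGAL, passed the filter on low levels through the line in which they were high. ITGAL, the alpha chain of LFA-1, was at 6.48 and 8.06 FPKM in L428 and 0.0346 and 0.262 FPKM in L1236. ITGB1 was at 44.6 and 36 FPKM in L428 and 10.4 and 11 FPKM in L1236, whereas ITGA4, at 21.1 and 24.8 FPKM in L428 and 72.1 and 92.2 FPKM in L1236, its ligand VCAM1, at 1.93 and 4.05 FPKM in L428 and 20.7 and 37.5 FPKM in L1236, and CD44, at 6.77 and 4.9 FPKM in L428 and 28.9 and 22.5 FPKM in L1236, were higher in L1236.

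Regulators of survival and division differed without a common direction. Of 20 BCL2 family genes and apoptosis inhibitors tested, 4 were higher in L428 and 5 in L1236. BCL2 was at 1.85 and 3.36 FPKM in L428 and 13.3 and 12.6 FPKM in L1236, a difference of -1.99 ± 0.25 (SE) (adjusted p = 2.89e-04), and the death activators BID and BCL2L11 were at 0.584 and 0.205 FPKM in L428 and 8.17 and 11.9 FPKM in L1236 and at 1.3 and 2.64 FPKM in L428 and 16.2 and 11.4 FPKM in L1236. Other death activators, BMF and PMAIP1, were higher in L428, as was BCL2L10, with BMF at 14.1 and 26.8 FPKM in L428 and 2.93 and 3.23 FPKM in L1236. BIRC5, or survivin, was at 74.5 and 101 FPKM in L428 and 20.5 and 24.1 FPKM in L1236. MCL1, at 72.6 and 92.1 FPKM in L428 and 112 and 121 FPKM in L1236, and BCL2L1, at 55.4 and 86.7 FPKM in L428 and 86.6 and 103 FPKM in L1236, were not called. Of 18 cyclins and cell cycle inhibitors, 4 were higher in L428, among them the inhibitor genes CDKN1B and CDKN2D, and 5 in L1236. CDKN1B, which encodes p27, was at 55.5 and 94.3 FPKM in L428 and 32.3 and 36.9 FPKM in L1236. CDKN1A, which encodes the inhibitor p21, was higher in L1236, at 2.2 and 2.28 FPKM in L428 and 11.7 and 18.7 FPKM in L1236. CDKN2A was at 36.2 and 34.9 FPKM in L428 and 79.7 and 88.5 FPKM in L1236. CCND2 was at 157 and 247 FPKM in L428 and 62.5 and 77.3 FPKM in L1236. CCNE1 was at 6.98 and 4.28 FPKM in L428 and 20.7 and 23 FPKM in L1236. Of 14 inflammasome and caspase genes, NLRP2 and AIM2 were higher in L428 and PYCARD, the ASC adaptor, in L1236, the last at 3.03 and 12.4 FPKM and listed at 0 in both L428 libraries. APOBEC3G was the one of 6 APOBEC3 genes that was called, at 25.9 and 24.1 FPKM in L428 and 3.88 and 7.77 FPKM in L1236, and of 6 cancer-testis genes MAGEB1, at 35.2 and 30.1 FPKM in L428 and 1.83 and 2.86 FPKM in L1236, and GTSF1, at 163 and 146 FPKM in L428 and 42.7 and 59.5 FPKM in L1236, were higher in L428. Of 77 ribosomal protein genes, RPL13A alone was called, and the median difference of that list was 0.01. CDKN1B lost its call without L1236_0 (log2 difference 0.95) and without L1236_1 (1.14) and without L428_1 (0.67). CDKN2A lost its call without L1236_1 (-1.14) and without L428_1 (-1.19). CCND2 lost its call without L1236_0 (1.34) and without L428_1 (1.17).

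Called genes were not spread evenly along the genome. Positions were taken from GENCODE release 44 on GRCh37, on which 11856 of the tested genes were placed, and the stretches described were picked after the values were seen. The 258 windows of 10 Mb with at least 15 tested genes included 11 with a median difference of 0.9 or more, and 7 of these lay on chromosome 6. A median of -0.9 or less was found in 5 windows, on chromosomes 2, 9 and 18. The one on chromosome 9, between 20 and 30 Mb, had a median of -1.22. Beyond 80 Mb on chromosome 6, 119 of 245 tested genes (48.6%) were higher in L428 and 11 in L1236, with a median difference of 1.01, whereas up to 80 Mb 71 of 438 (16.2%) were higher in L428 and 54 in L1236, with a median of -0.07. TNFAIP3, IFNGR1, PRDM1 and BACH2 lie in the first of these stretches. Around TNFAIP3, at chr6:136878184-139501939, all 10 tested genes from MAP3K5 to HECA were higher in L428. MAP3K5 was at 38.5 and 41.2 FPKM in L428 and 8.13 and 8.22 FPKM in L1236. PEX7 was at 25.2 and 29.4 FPKM in L428 and 1.89 and 2.58 FPKM in L1236. HEBP2 was at 157 and 209 FPKM in L428 and 10.3 and 19 FPKM in L1236, so the difference at TNFAIP3 and IFNGR1 was found also at neighbours of other functions.

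**Figure D4:**
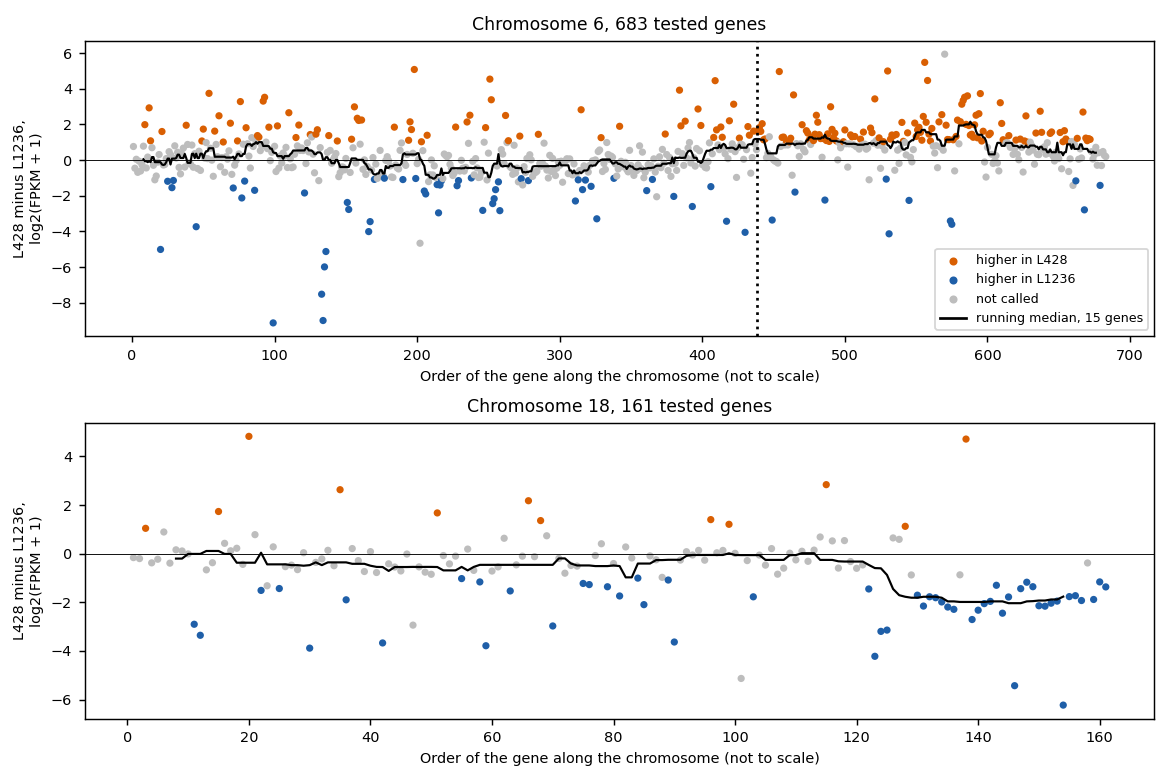
Difference between L428 and L1236 on the log2(FPKM + 1) scale of the tested genes of chromosome 6 (upper panel) and chromosome 18 (lower panel), in their order along the chromosome and not to scale; points called higher in L428 are orange, points called higher in L1236 blue and the others grey, and the line is the running median over 15 genes. Right of the dotted line, which marks 80 Mb on chromosome 6, 119 of 245 genes are orange.

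The reverse held at the end of chromosome 18, where 16 of the 17 tested genes between 70 and 80 Mb were higher in L1236 and none in L428, with a median difference of -1.78. On the same arm, at chr18:59992520-61089716, all 6 genes in the table, TNFRSF11A, ZCCHC2, PHLPP1, BCL2, KDSR and VPS4B, were higher in L1236, with log2 differences between -1.77 and -2.29. ZCCHC2 was at 1.46 and 1.21 FPKM in L428 and 7.28 and 6.67 FPKM in L1236. KDSR was at 1.51 and 1.43 FPKM in L428 and 10.9 and 9.83 FPKM in L1236. VPS4B, of the endosomal sorting machinery, was at 5.69 and 7.95 FPKM in L428 and 31.4 and 43.2 FPKM in L1236. TNFRSF11A and BCL2 differed between the lines by about as much as the other genes of this stretch, which begins at TNFRSF11A. The window between 50 and 60 Mb, which holds the start of TNFRSF11A, had a median of -0.33. There 6 of 21 tested genes were higher in L1236 and 2 in L428. The study reports a TNFRSF11A transcript from an upstream repeat in L1236 and a weak one in L428. The cause of the difference was not tested here. The windows of chromosome 2 between 10 and 40 Mb had medians of -1.20, -0.98 and -1.27, with 56 of 123 tested genes higher in L1236 and 6 higher in L428.

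Some genes with a clear level in every other library were listed at or near 0 in one line. With at least 10 FPKM in the other 10 libraries and under 0.5 FPKM in both of the line concerned, 8 such genes were found for L1236 and 4 for L428. Of the 8 for L1236, 4 lie together on chromosome 9, where chr9:139685796-139821059 holds RABL6, PHPT1, MAMDC4, EDF1 and TRAF2. EDF1, a transcriptional co-activator, was at 146 and 164 FPKM in L428 and 0.36 and 0 FPKM in L1236, PHPT1, a histidine phosphatase, at 27.2 and 21.1 FPKM in L428 and 0 and 0.0429 FPKM in L1236, and RABL6, at 22 and 14.7 FPKM in L428, was listed at 0 in both L1236 libraries, like TRAF2. TMEM141, at one end of the stretch, was present in both lines, at 32.8 and 23.1 FPKM in L428 and 11.6 and 13 FPKM in L1236. CCDC183-AS1, an antisense gene next to RABL6, was low in both lines and pointed the other way, at 1.12 and 1.04 FPKM in L428 and 2.32 and 2.94 FPKM in L1236, without reaching the fold threshold, which it did with a pseudocount of 0.1 (log2 difference -1.20). SNRPN, an imprinted gene of 15q11, was at 88.7 and 125 FPKM in L428 and listed at 0 in L1236, as were MKRN3 and PWAR5 of the same region and SNURF, which shares its transcript with SNRPN. UBE3A, which borders it, was at 57.6 and 89.9 FPKM in L428 and 29.7 and 35 FPKM in L1236. CD24, GSTO1 and IFITM2 were the other genes of this kind for L1236, CD24 at 15.5 and 18.3 FPKM in L428 and 0 and 0.0714 FPKM in L1236. Those for L428 were HIST1H2AL, MARCKSL1, SLC38A5 and CYB5A. CYB5A, a cytochrome of chromosome 18, was at 39 and 45.5 FPKM in L1236. SLC38A5, an amino acid transporter, was at 0.080 and 0.245 FPKM in L428 and 18.9 and 14 FPKM in L1236. TMEM141 lost its call without L1236_0 (log2 difference 1.02) and without L1236_1 (1.18) and without L428_0 (0.86) and without L428_1 (1.35). UBE3A lost its call without L428_1 (0.82).

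Histone genes, a family picked after the values were seen, differed in both directions, and several stood among the largest differences towards L1236. Of 59 tested, 15 were higher in L428, 7 were higher in L1236 and 37 were not called, with a median difference of 0.64. Over all genes the share was 12.5% in each direction, so the count towards L1236 was near that background and the count towards L428 was above it. Replication-dependent histone RNAs end in a stem-loop in place of a poly(A) tail, and these libraries were made from total RNA depleted of ribosomal RNA, so such RNAs could be captured. Of the 7 genes higher in L1236, 6 were under 5 FPKM in both L428 libraries, at most 2.06 FPKM. HIST1H1D, which encodes the linker histone H1.3, was at 0.24 and 0.248 FPKM in L428 and 534 and 898 FPKM in L1236, a difference of -9.12 ± 0.31 (SE) (adjusted p = 1.60e-07). HIST1H1B, which encodes H1.5, was at 0 and 2.06 FPKM in L428 and 855 and 923 FPKM in L1236. HIST1H4F was at 0 and 0 FPKM in L428 and 426 and 605 FPKM in L1236. Neighbours of HIST1H1B on chr6:27782080-27841312, HIST1H2AL, HIST1H3I and HIST1H4L, were at 0.482 and 0 FPKM in L428 and 266 and 185 FPKM in L1236, at 0.472 and 0.992 FPKM in L428 and 117 and 98.4 FPKM in L1236 and at 0.74 and 0.794 FPKM in L428 and 65.5 and 56 FPKM in L1236. Other histone genes of that stretch were used in both lines, with HIST1H2AJ at 607 and 722 FPKM in L428 and 589 and 466 FPKM in L1236. HIST1H4J was at 87.2 and 177 FPKM in L428 and 38.6 and 51.7 FPKM in L1236 and was higher in L428. HIST1H4J lost its call without L1236_0 (log2 difference 1.25) and without L1236_1 (1.66) and without L428_1 (0.95).

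Other linker histone genes, HIST1H1E and HIST1H1C, which lie on the same stretch as HIST1H1D, went the opposite way. HIST1H1E, which encodes H1.4, was at 2540 and 3726 FPKM in L428 and 241 and 399 FPKM in L1236, a difference of 3.31 ± 0.44 (SE) (adjusted p = 3.50e-04), and HIST1H1C, which encodes H1.2, at 2520 and 4266 FPKM in L428 and 1110 and 1437 FPKM in L1236. Together with HIST1H3G, at 1240 and 3015 FPKM in L428 and 512 and 511 FPKM in L1236, and HIST1H2AI, at 1279 and 1987 FPKM in L428 and 655 and 531 FPKM in L1236, they were among the 5 most abundant genes called higher in L428. HIST1H2BD was at 1118 and 1619 FPKM in L428 and 105 and 128 FPKM in L1236 and HIST1H4C, at 1171 and 1555 FPKM in L428 and 951 and 919 FPKM in L1236, was not called. HIST1H1D was also at 0 and 0 FPKM in KM-H2 and HIST1H1B at 1113 and 392 FPKM. Many histone genes are near-copies of one another, and how reads that match several of them were shared is not given in the sources used here, so the level of a single member is uncertain. HIST1H1C lost its call without L1236_0 (log2 difference 1.19) and without L1236_1 (1.56) and without L428_1 (1.00). HIST1H3G lost its call without L1236_0 (1.92) and without L1236_1 (1.92) and without L428_1 (1.28). HIST1H2AI lost its call without L1236_0 (1.59) and without L1236_1 (1.28) and without L428_1 (1.12).

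**Figure D5:**
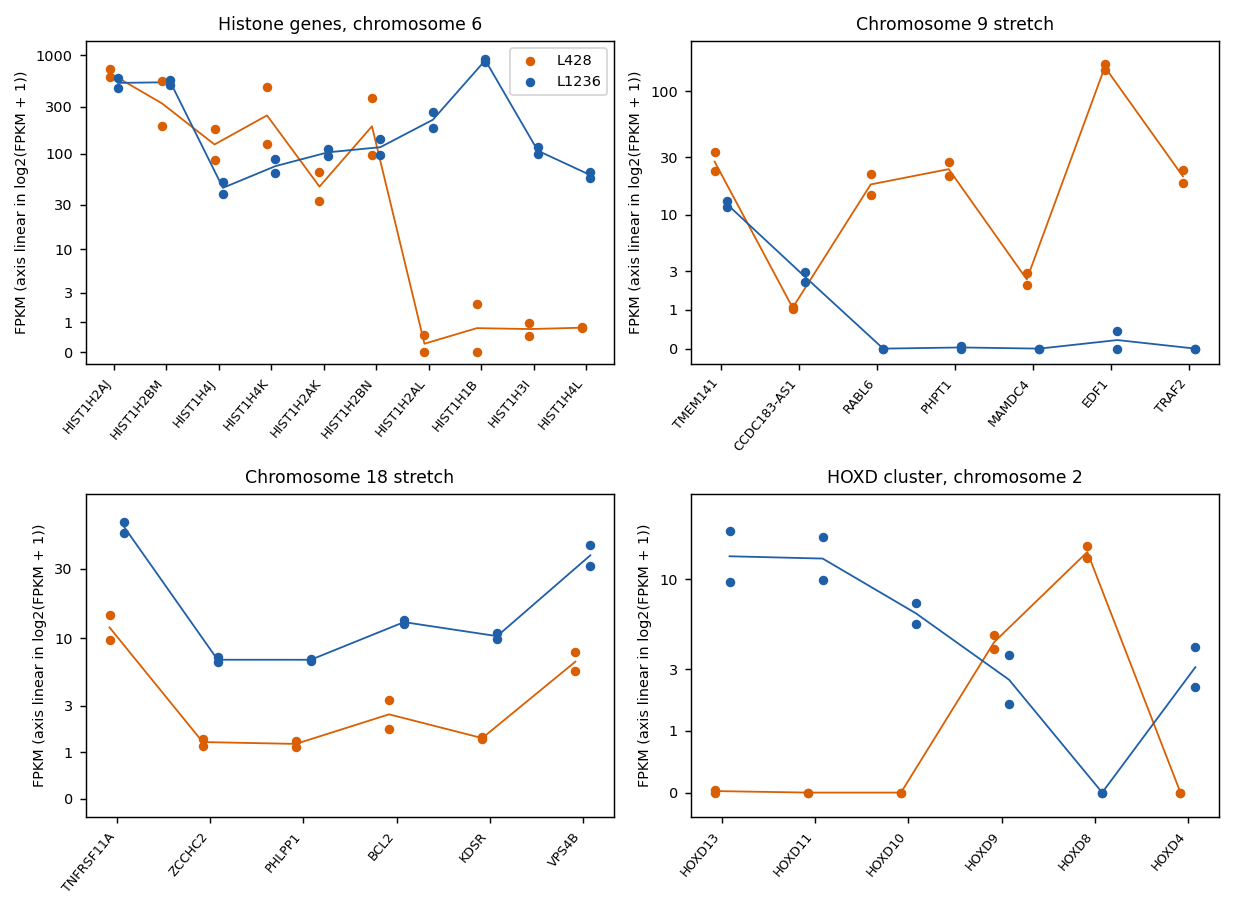
FPKM in the 4 libraries, on an axis linear in log2(FPKM + 1), of neighbouring genes in their order along the chromosome in 4 stretches: the second histone stretch of chromosome 6 (10 genes), the tested genes of the chromosome 9 stretch (7 genes), the chromosome 18 stretch (6 genes) and the tested genes of the HOXD cluster (6 genes); L428 is in orange and L1236 in blue, and lines join the means of a line. At the right of the histone panel 4 genes drop to 2.06 FPKM or less in L428 and stay at 56.0 FPKM or more in L1236.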

How the data were processed

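RNA-seq was deposited as 1 table of gene-level FPKM for 12 libraries, made by the authors from stranded, ribosomal-RNA-depleted total RNA. The submitters' processing notes name TopHat2 2.0.11, Cuffnorm 2.2.1, bedtools and hg19; how reads matching several genes were shared is not given in the sources used here. FPKM values are normalized by the authors, so library size differences are already removed and counting error cannot be recovered. Columns were matched to lines by name, with 0 per-sample columns left unused.

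Genes with a mean of at least 1 FPKM over the 4 libraries were fitted with limma 3.58.1 in R on log2(FPKM + 1), over all 12 libraries in 6 groups, with a mean-variance trend and Benjamini-Hochberg adjustment over all genes tested. The fit was tested on simulated data. Named genes were the 20 largest called differences in each direction without overlap between the lines, leaving out small RNA, ribosomal protein and LOC names, the 5 most abundant, the 5 largest under 1 FPKM elsewhere, and members of gene lists. The lines, lists and rule were chosen with earlier results of these data known. Some genes that the rule or the lists name are not reported here.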

Additional observations from a re-analysis of the deposited data

Results flagged for a closer look

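One library outside the comparison, KM-H2_1, held RNA of genes otherwise found in L428, and the cause was not tested. There, genes that reached 20 FPKM in both L428 libraries and stayed under 0.5 FPKM in the remaining 9 libraries stood at a median of 2.84% of their L428 mean, over 10 genes with a range of 0% to 52.0%, and 8 of the 10 were above KM-H2_0. For 15 genes chosen in the same way for L1236 the median was 0% and 1 gene was above KM-H2_0. S100A6, which is not among the 10 because KM-H2_0 was just over that limit, was at 30.6 FPKM in KM-H2_1 and 0.519 FPKM in KM-H2_0, against 0 in both L1236 libraries. The test of L428 against L1236 reads KM-H2_1 only through the shared estimate of spread. The choices of genes low in the other lines, and of genes near 0 in a single line, also read its levels.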

How the results depend on the processing

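The alternatives were other pseudocounts, filters, rescalings, libraries and variance models, and leaving out KM-H2_1 was chosen after the data were seen. With a minimum mean of 5 FPKM, which leaves 9028 genes to test, 1023 genes were higher in L428 and 1008 in L1236, against 1535 and 1525. Under the other alternatives the counts stayed within 1.5 times those reported, as did the counts against KM-H2 under all alternatives tried. With the spread taken from the 4 libraries only, 1240 genes were higher in L428 and 1316 in L1236. Left out in turn, the 4 libraries gave 1224 to 1679 genes higher in L428 and 1326 to 1537 higher in L1236. Among 220 single genes and 3276 values under alternatives, 3125 kept direction and call, 123 lost the call, 20 gained one and 8 changed sign. The losses named beside genes are only those from leaving out a library. Other losses included 22 with only the 4 libraries, 14 with no filter on the mean and 9 with a pseudocount of 0.1. With the kind of library as a second factor over the 4 libraries, 3 calls were lost. A gene given without a remark may be among these. The sign changes were all at genes that were not called and came with leaving out a library, with values of -0.39 to 0.24 for CSF1, -0.12 to 0.47 for JUNB, -0.33 to 0.48 for MYC, -0.51 to 0.40 for NLRP1 and -0.86 to 0.025 for PLGRKT, and the cause was not tested beyond the loss of that library. No paired analysis was possible because the pairing by replicate number is unknown, since the table's columns carry an index of 0 or 1 and not the replicate numbers of the labels. The kind of library, set by RPL21, was fitted as a second factor in its place and gave 1627 genes higher in L428 and 1626 in L1236 over the 4 libraries, and 1596 and 1591 over all 12. With 2 libraries a line and no read totals, the precision of low levels cannot be given.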
